A study of Homo sapiens with 30 samples.

Results

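Transcripts of 9 chemotactic receptors were measured in acute myeloid leukemia (AML) cell lines: CCR1, CCR2, CCR7, CXCR2, CXCR4, CX3CR1, FPR1, C5AR1 and C3AR1. They were selected on the measured rise of CCR1 and CCR2 in Molm-14 cells after MPC1 deletion, and each was matched to its Ensembl gene. All 9 were listed among the 58051 genes of the knockout series and among the 60675 genes of the overexpression series. The knockout series used the lines MV4-11, Molm-14 and THP-1, transduced with a lentiviral CRISPR/Cas9 construct with GFP and 1 guide against MPC1 (KO) or with an empty vector (EV). MPC1 is part of the transporter through which pyruvate enters mitochondria. The overexpression series used MV4-11 and Molm-14 with a lentivirus in which the EF1α promoter drives GFP and MIR1-2 host gene sequence that yields miR-1 (OE), or a vector with GFP alone (EV). Each of the 10 groups held 3 libraries. Both FLT3-ITD lines, MV4-11 and Molm-14, have a duplicated stretch in the receptor FLT3. The line THP-1 is monocytic. Whether libraries of a group came from separate infections, clones or cultures is not stated.

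Chemotactic receptors are G protein-coupled receptors of the cell surface that steer leukocytes along gradients of their ligands. Inflammatory monocytes use CCR2 to leave the bone marrow toward CCL2, and CCR1 binds CCL3 and CCL5. CXCR4 holds hematopoietic and leukemic cells in the marrow niche through CXCL12, CXCR2 is the neutrophil receptor for CXCL8, and CX3CR1 marks patrolling monocytes and binds CX3CL1. CCR7 leads lymphocytes and mature dendritic cells to lymph nodes. FPR1 senses formylated bacterial peptides, and C5AR1 and C3AR1 sense the complement fragments C5a and C3a.

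CCR1 (ENSG00000163823) lies on chromosome 3 at 46201711 to 46208313 on the minus strand of GRCh38, and CCR2 (ENSG00000121807) at 46353864 to 46360940 on the plus strand, 145550 bases away in the same receptor cluster. CCR1 lies within the span of CCR3 on the opposite strand, with 0 exon bases shared, and CCR3 did not exceed a group mean of 1.63 CPM (counts per 1000000 counts of the scaled library). The promoters of both genes are shown because their transcripts moved together in Molm-14 KO cells. Each run holds 250 bases before the RefSeq start and the bases after it, to 300 in all, 5′ to 3′ on the strand of the gene (GRCh38.p14, RefSeq). Capitals mark matches, on either strand, to AGGAAGT (an ETS core of the kind PU.1 binds), TTGCNNAA (C/EBP), TGANTCA (AP-1) or TATAAA (the core promoter element that TBP binds).
CCR1, chr3:46208264-46208563, minus strand: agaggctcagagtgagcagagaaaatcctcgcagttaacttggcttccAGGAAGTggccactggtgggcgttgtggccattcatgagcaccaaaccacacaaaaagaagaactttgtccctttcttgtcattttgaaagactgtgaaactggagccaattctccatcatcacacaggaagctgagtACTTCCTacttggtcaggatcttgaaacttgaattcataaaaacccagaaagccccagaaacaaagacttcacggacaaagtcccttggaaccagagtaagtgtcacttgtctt
CCR2, chr3:46353861-46354160, plus strand: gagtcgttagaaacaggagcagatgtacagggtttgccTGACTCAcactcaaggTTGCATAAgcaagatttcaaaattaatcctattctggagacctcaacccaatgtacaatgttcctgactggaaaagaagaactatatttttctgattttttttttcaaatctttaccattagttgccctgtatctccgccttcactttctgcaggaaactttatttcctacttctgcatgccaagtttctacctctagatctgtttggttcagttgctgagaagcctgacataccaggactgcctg
The CCR1 window held AGGAAGT 202 bases before the start and its reverse complement ACTTCCT 64 bases before it. The CCR2 window held TGACTCA 212 bases and TTGCATAA 196 bases before the start. The RefSeq start used for CCR2 lies inside the gene span given above, which begins near the left end of the window. Both CCR2 matches therefore lie inside that span. The matches in each window did not overlap. No motif was found in both windows, and neither held TATAAA. Over 35116 RefSeq promoter windows of this length, 8.24% held AGGAAGT, 10.5% TTGCNNAA, 7.71% TGANTCA and 11.5% TATAAA. A match is a description of letters and not a site of binding.

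The OE vector yields the microRNA below, in which capitals mark the seed, bases 2 to 8 (RefSeq).
hsa-miR-1-3p: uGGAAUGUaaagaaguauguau
A full match to it in a 3′ UTR is the 8mer ACATTCCA. Of the 9 receptors, CXCR2 and CXCR4 held 1 such 8mer each in the 3′ UTR of their canonical transcript (GENCODE release 44), and the other 7 held none. No member held ACATTCC without the closing A. Across 19228 canonical 3′ UTRs, 4.83% held the 8mer. The matched sites are printed with their flanks, with the 8mer in capitals.
CXCR2, from base 53 of the UTR for the 8mer: cttcacagtcACATTCCAagcctcatgt
CXCR4, from base 265 of the UTR for the 8mer: agggaactgaACATTCCAgagcgtgtag

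The labels of the knockout series were first checked on MPC1 itself. In MV4-11, MPC1 was at 24.8 ± 1.26 CPM in KO and 56.1 ± 2.33 in EV libraries (SD, n = 3 each). In Molm-14 it was at 37.4 ± 3.92 in KO and 77.3 ± 3.85 in EV, and in THP-1 at 54.1 ± 4.41 and 97.0 ± 5.52. The transcript was therefore reduced and not absent in the KO cells. No such check of miR-1 was made for the OE libraries. All 10 groups expressed myeloid markers, with 13 or 14 of 14 detected in each group. The summed level of 7 lymphoid markers did not exceed 35.0 CPM in any library, with CD2 at 0 in every group. Of the 8 erythroid and platelet markers, HBA2 and PF4 had 0 counts in every library. ITGA2B was expressed in MV4-11, at 5.26 CPM in EV libraries of the overexpression series against 0.321 in Molm-14 EV. The summed level of the list was 8.82 to 11.3 CPM in MV4-11 EV of the knockout series and 0.450 to 0.659 in Molm-14 EV. Among stromal and endothelial markers COL3A1 was at or near 0, while PECAM1 was expressed. In the overexpression series, MV4-11 OE replicate 1 and MV4-11 EV replicate 3 stood apart from the other MV4-11 libraries. CCL3 had 147, 20 and 2 counts with OE and 12, 6 and 78 with EV, and CCL2 had 126, 28 and 17 against 16, 20 and 80.

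CCR2 was the most abundant receptor per kilobase of exon in MV4-11 and THP-1 cells of the knockout series, and CXCR4 in Molm-14 cells. In MV4-11 EV cells the level was 97.2 CPM per kilobase for CCR2, 41.2 for CXCR4, 21.2 for CCR1, 6.30 for CXCR2 and 2.07 for CX3CR1. In THP-1 EV cells it was 103 for CCR2, 23.4 for CCR1, 19.8 for CXCR4, 8.44 for CX3CR1 and 8.02 for CXCR2. In Molm-14 EV cells it was 29.0 for CXCR4, 14.6 for CCR2, 8.06 for CCR1, 2.87 for CX3CR1 and 1.00 for CXCR2. The same 5 receptors were the most abundant members in each of these lines, and C3AR1 did not exceed 0.460 CPM per kilobase in any group.

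**Figure D1:**
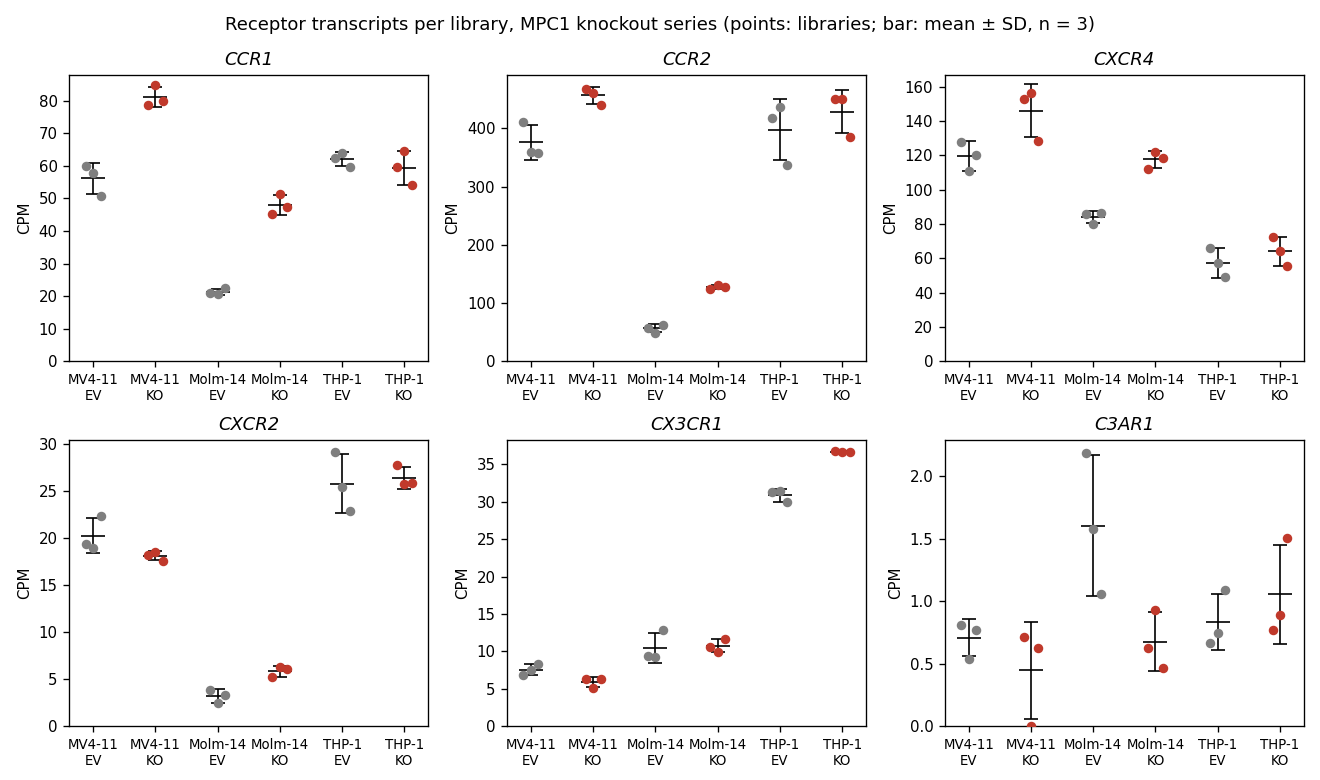
CPM of 6 receptors in the 18 libraries of the knockout series, by cell line and vector (grey, EV; red, KO), with points for libraries and bars for mean ± SD, n = 3. CCR1 and CCR2 were lowest in Molm-14 EV, where they were at 21.3 and 56.6 CPM, and CX3CR1 was highest in THP-1.

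CCR7, FPR1 and C5AR1 were at the limit of detection. CCR7 had 0 counts in all 6 THP-1 libraries and at most 4 in any other library of the knockout series. In the overexpression series its highest count was 7, in Molm-14 OE replicate 1. FPR1 had at most 7 counts in the knockout series, in THP-1 KO replicate 3, and at most 2 in the overexpression series. C5AR1 had 0 counts in all 3 Molm-14 KO libraries and at most 2 in the other knockout libraries. In MV4-11 it had 18, 7 and 0 counts with OE and 4, 3 and 23 with EV, and the highest values were in the 2 libraries that stood apart. These 3 genes did not pass the filter on low counts, so 6 of the 9 receptors were tested in each series. A 0 in a knockout library allows up to 0.329 to 0.562 CPM.

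Receptor levels differed between lines that carried the empty vector, as did the levels of most genes tested. In the EV libraries of the overexpression series, 5 of the 6 receptors tested differed between MV4-11 and Molm-14 by edgeR at an FDR under 5%, beside 64.8% of all genes tested. CCR2 was at 146, 140 and 151 CPM in MV4-11 and at 17.6, 17.2 and 17 in Molm-14, a log2 difference of 3.08 ± 0.07 (SE; FDR 1.06e-18). CCR1 was at 84.7, 89.1 and 115 CPM in MV4-11 and at 12.7, 11.3 and 14.6 in Molm-14 (log2 difference 2.90 ± 0.15, FDR 6.5e-09). Neither pair of groups overlapped. CXCR2 was also higher in MV4-11, at 14.8 ± 2.91 against 2.53 ± 0.37 CPM (SD, n = 3; log2 difference 2.54 ± 0.20, FDR 7.13e-10). CXCR4 was higher by a smaller margin, at 102 ± 15.3 against 64.5 ± 4.12 CPM (log2 difference 0.66 ± 0.16, FDR 0.0049). CX3CR1, the fractalkine receptor, went the other way, with 3.24, 2.65 and 3.71 CPM in MV4-11 and 14.1, 15.1 and 16 in Molm-14 (log2 difference -2.24 ± 0.14, FDR 2.72e-11). C3AR1 did not pass, at 0.0579, 0.0965 and 0.648 CPM in MV4-11 and 0.694, 0.717 and 0.877 in Molm-14 (log2 difference -1.54 ± 1.20, FDR 0.286). Without the 2 libraries that stood apart its difference was -3.16 ± 0.76 at an FDR of 4.78e-04, a choice made after seeing the data.

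Between MV4-11 and THP-1 EV cells of the knockout series, CX3CR1, CXCR4 and CXCR2 differed, and CCR1, CCR2 and C3AR1 did not pass the test. Of the 6 receptors tested, 3 passed the FDR, beside 67.5% of all genes. CX3CR1 was at 6.85, 7.54 and 8.33 CPM in MV4-11 and at 31.3, 31.4 and 29.9 in THP-1 (log2 difference -2.03 ± 0.14, FDR 4.51e-13). CXCR4 was at 128, 111 and 120 CPM in MV4-11 and 66.2, 57.1 and 48.9 in THP-1 (log2 difference 1.05 ± 0.11, FDR 1.48e-09). These 2 receptors thus lay in opposite directions between the lines, with no overlap of libraries. CXCR2 was lower in MV4-11, at 20.2 ± 1.84 against 25.8 ± 3.16 CPM (log2 difference -0.36 ± 0.12, FDR 0.0128), and did not pass without MV4-11 EV replicate 2 (FDR 0.054) or THP-1 EV replicate 1 (FDR 0.111). The log2 difference was -0.14 ± 0.09 for CCR1 (FDR 0.174) and -0.08 ± 0.09 for CCR2 (FDR 0.461), and their libraries overlapped. The EV cells of Molm-14 in this series belong to the comparison that chose the members, and their levels were 56.6 ± 6.90 CPM for CCR2 and 21.3 ± 0.95 for CCR1, below every MV4-11 and THP-1 library.

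**Figure D2:**
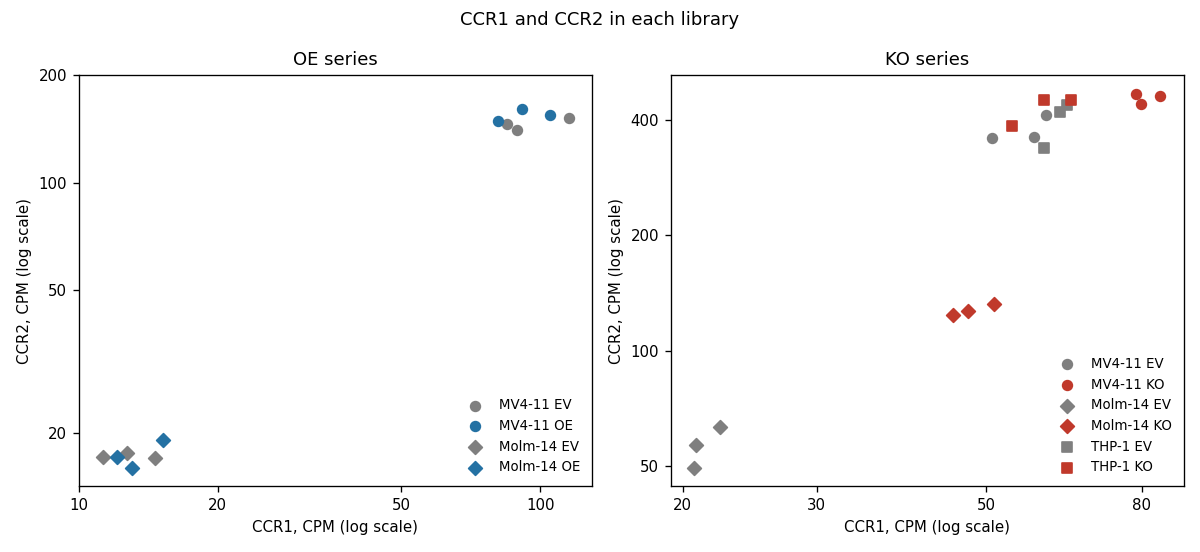
CCR1 against CCR2 in CPM in each library, on log axes, for the overexpression series (left) and the knockout series (right), with circles for MV4-11, diamonds for Molm-14 and squares for THP-1. In the knockout series the 3 Molm-14 KO libraries lay above and to the right of the 3 Molm-14 EV libraries, with CCR2 at 124 to 132 against 49.5 to 63.3 CPM.

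CCR1 rose after MPC1 deletion in MV4-11 cells and was the only receptor of the 6 tested that passed the FDR, beside 5.41% of all genes (784 of 14490). CCR1 was at 78.7, 84.7 and 79.9 CPM in KO libraries and at 60.0, 57.8 and 50.9 in EV libraries. Every KO library was above every EV library, and the log2 fold change was 0.53 ± 0.09 (1.44-fold, FDR 8.0e-04 by edgeR's quasi-likelihood test). DESeq2 called the same number of members, 1. Without any 1 library the log2 fold change of CCR1 stayed between 0.46 and 0.58, and each of the 6 fits kept the call. In these bulk cultures, more cells that express a receptor and more transcript per cell cannot be told apart.

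CCR2 and CXCR4 lay above their EV libraries in MV4-11 KO cells but did not pass the FDR. CCR2 was at 468, 461 and 440 CPM in KO and 411, 360 and 358 in EV libraries, which did not overlap (log2 fold change 0.28 ± 0.09, FDR 0.0769). Without MV4-11 EV replicate 1 it passed, at 0.35 ± 0.10 and an FDR of 0.0285. CXCR4, the CXCL12 receptor, was at 153, 157 and 129 CPM in KO and 128, 111 and 120 in EV libraries (log2 fold change 0.29 ± 0.10, FDR 0.093), with no overlap, and passed without MV4-11 KO replicate 3 (FDR 0.0412). CX3CR1 was at 6.26, 5.14 and 6.29 CPM in KO and 6.85, 7.54 and 8.33 in EV libraries (log2 fold change -0.35 ± 0.16, FDR 0.2). CXCR2 was at 18.2, 18.5 and 17.6 CPM against 19.4, 19.0 and 22.4 (log2 fold change -0.16 ± 0.13, FDR 0.497). For CX3CR1 and CXCR2 every KO library was below every EV library, so groups separated in both directions. The share of all genes without overlap was not counted for this comparison. The separation is therefore a description, and no support for a change in receptors that did not pass the FDR. C3AR1 had 5, 0 and 5 counts in KO libraries and 7, 4 and 5 in EV libraries, which is too few to show a change. Myeloid markers moved in the same comparison. The serine proteases of neutrophil granules ELANE, PRTN3 and AZU1 fell by 1.06, 0.72 and 0.70 on the log2 scale, SPI1, which encodes PU.1, fell by 0.46, and PTPRC, which encodes CD45, was higher by 0.27. These were the 5 of 13 tested markers past the FDR, and their part in the CCR1 result was not tested. The summed level of the 14 myeloid markers was 7300 to 8245 CPM in KO and 8038 to 9661 CPM in EV libraries. Lymphoid markers summed to 26.3 to 35.0 CPM in KO and 28.5 to 29.7 in EV, with CD2, CD3D and MS4A1 at 0 in both groups.

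No receptor changed past the FDR in THP-1 KO cells, where 0.0897% of all genes were called (13 of 14490). By edgeR 1 of the 6 receptors tested was under an unadjusted p of 0.05, and DESeq2 called 0. CCR1 was at 59.5, 64.6 and 54.1 CPM in KO and 62.5, 63.8 and 59.6 in EV libraries (log2 fold change -0.06 ± 0.09, FDR 0.885). CCR2 was at 450, 451 and 386 CPM in KO and 419, 437 and 338 in EV libraries (log2 fold change 0.11 ± 0.09, FDR 0.796). Libraries of the groups overlapped for both, while within same-numbered pairs CCR2 was higher in the KO library in 3 of 3. CX3CR1, which was most abundant in this line, was at 36.7 CPM in each KO library and at 31.3, 31.4 and 29.9 in the EV libraries, with no overlap (log2 fold change 0.25 ± 0.12, FDR 0.606). CXCR4 was at 72.5, 64.3 and 55.6 CPM in KO and 66.2, 57.1 and 48.9 in EV libraries, higher in the KO library of 3 of 3 pairs, with a log2 fold change of 0.16 ± 0.11. With the pairs as a replicate block the log2 fold change was 0.11 ± 0.07 for CCR2 (FDR 0.599) and 0.16 ± 0.08 for CXCR4 (FDR 0.533). CXCR2 had a log2 fold change of 0.03 ± 0.12 and C3AR1 of 0.35 ± 0.53. Of the myeloid markers, S100A8, a calcium-binding protein of monocytes and neutrophils, was higher by 0.59 (FDR 0.0495).

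The effect of MPC1 deletion on CCR1 differed between MV4-11 and THP-1. The difference of the log2 fold changes was 0.59 ± 0.13 (FDR 0.0438, edgeR), and CCR1 was the only one of the 6 receptors past the threshold, beside 0.193% of all genes. The result lay close to the threshold. Leaving out 1 library at a time gave differences of 0.52 to 0.65 and FDR values of 0.0241 to 0.214, with 3 of 12 fits past the FDR. It passed without MV4-11 EV replicate 1, THP-1 EV replicate 3 or THP-1 KO replicate 2, and with a floor of 1 CPM in 3 libraries the FDR was 0.0546. For CX3CR1, whose values were lower in KO libraries of MV4-11 and higher in those of THP-1, the difference was -0.60 ± 0.20 at an FDR of 0.327. The difference was 0.17 ± 0.13 for CCR2, 0.13 ± 0.15 for CXCR4 and -0.18 ± 0.18 for CXCR2, and none passed.

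**Figure D3:**
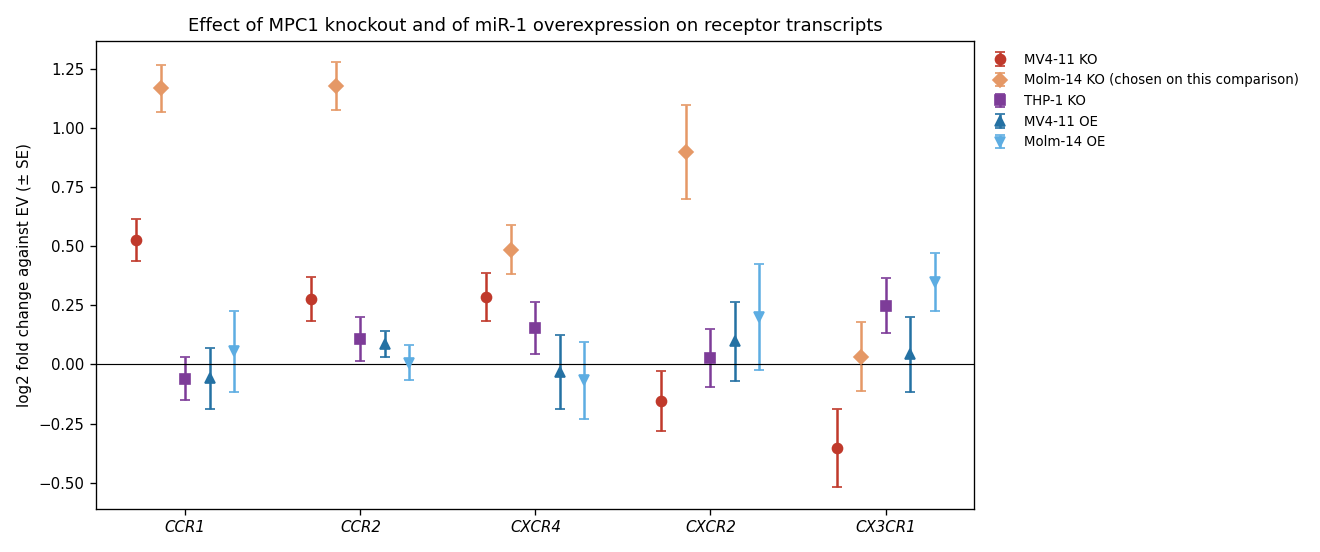
Log2 fold change against EV, ± SE, of 5 receptors after MPC1 knockout in 3 lines and miR-1 overexpression in 2 lines (n = 3 libraries per group). CCR1 was at 0.53 in MV4-11 KO and -0.06 in THP-1 KO, and the Molm-14 KO values, on which the members were chosen, are shown without a test.

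In Molm-14 KO cells the values chose the members and are given as a description. CCR1 was at 45.2, 51.2 and 47.3 CPM in KO and 20.9, 20.7 and 22.4 in EV libraries (log2 fold change 1.17 ± 0.10). CCR2 was at 124, 132 and 127 CPM in KO and 56.8, 49.5 and 63.3 in EV libraries (log2 fold change 1.18 ± 0.10). Neither pair of groups overlapped, and the ratio of CCR2 to CCR1 counts was 2.67 ± 0.09 in KO and 2.65 ± 0.23 in EV libraries (SD, n = 3). CXCR2 was at 5.20, 6.25 and 6.09 CPM against 3.87, 2.48 and 3.30 (log2 fold change 0.90 ± 0.20). CXCR4 was at 112, 122 and 119 CPM against 85.9, 79.9 and 86.4 (log2 fold change 0.49 ± 0.10). All KO libraries were above all EV libraries for these 4 receptors. CX3CR1 was at 10.6, 9.98 and 11.7 CPM against 9.42, 9.23 and 12.8 (log2 fold change 0.03 ± 0.15), with overlap. C3AR1 had 4, 7 and 3 counts in KO and 13, 14 and 8 in EV libraries, and its KO libraries were all below its EV libraries in CPM. Groups thus did not overlap for 5 of the 6 receptors, beside 16.4% of all genes. The 5 include CCR1 and CCR2, on which the members were chosen, and C3AR1, which was lower. The count is therefore no result about the receptors. Over the 13 myeloid markers in the fit of the same libraries the median log2 fold change was 0.07, with 8 higher and 5 lower. Their summed level was 1945 to 2224 CPM in KO and 2111 to 2282 CPM in EV libraries. FCN1 was at 0 in both groups, and their part in the receptor values was not tested.

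The levels in KO cells of Molm-14 did not reach those of the other lines for every receptor. In the order of the 6 groups, CCR2 ran from MV4-11 KO (457 ± 14.4 CPM), THP-1 KO (429 ± 37.3), THP-1 EV (398 ± 52.6) and MV4-11 EV (377 ± 30.01) down to Molm-14 KO (128 ± 3.91) and Molm-14 EV (56.6 ± 6.90). Neighbours among the first 4 overlapped, and the last 2 groups were apart from the rest and from each other. CCR1 ran from MV4-11 KO (81.1 ± 3.19 CPM) over THP-1 EV (62.0 ± 2.16), THP-1 KO (59.4 ± 5.24) and MV4-11 EV (56.2 ± 4.75) to Molm-14 KO (47.9 ± 3.05) and Molm-14 EV (21.3 ± 0.95). The highest and the lowest group were apart from their neighbours, and the range of Molm-14 KO overlapped that of MV4-11 EV. CXCR4 ran from MV4-11 KO (146 ± 15.2 CPM), MV4-11 EV (120 ± 8.55) and Molm-14 KO (118 ± 4.92) to Molm-14 EV (84.1 ± 3.62), THP-1 KO (64.1 ± 8.44) and THP-1 EV (57.4 ± 8.66). Its overlaps were between MV4-11 EV and Molm-14 KO and between the THP-1 groups.

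miR-1 overexpression changed no receptor past the FDR in either line. In MV4-11, 0 of the 6 receptors tested passed by edgeR, 0 were under an unadjusted p of 0.05 and 0 passed by DESeq2, beside 0.177% of all genes called. CCR1 was at 105, 91.3 and 81.1 CPM in OE and 84.7, 89.1 and 115 in EV libraries (log2 fold change -0.06 ± 0.13), and the highest library of each group was one of those that stood apart. CCR2 was at 154, 161 and 149 CPM against 146, 140 and 151 (log2 fold change 0.09 ± 0.06, FDR 0.963). CX3CR1 had a log2 fold change of 0.04 ± 0.16. C3AR1 had 37, 2 and 1 counts in OE and 1, 2 and 11 in EV libraries (log2 fold change 1.54 ± 1.19), so 1 library of each group held most of its counts. Without the 2 libraries that stood apart, 0 receptors passed as well.

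The receptors with a miR-1 8mer, CXCR4 and CXCR2, were not lower past the FDR in OE cells. In MV4-11, CXCR4 was at 75.3, 106 and 118 CPM in OE and 104, 116 and 85.7 in EV libraries (log2 fold change -0.03 ± 0.16, FDR 1). CXCR2 was at 15, 15.8 and 16.8 CPM against 14, 18 and 12.3 (log2 fold change 0.10 ± 0.17, FDR 1). In Molm-14, CXCR4 was at 60.8, 61.4 and 62.3 CPM in OE and 62.0, 69.2 and 62.1 in EV libraries (log2 fold change -0.07 ± 0.16, FDR 1). CXCR2 was at 3.77, 1.95 and 2.93 CPM against 2.21, 2.93 and 2.46 (log2 fold change 0.20 ± 0.23, FDR 1). The libraries of OE and EV overlapped in each of these comparisons. The level of miR-1 in these libraries was not checked.

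**Figure D4:**
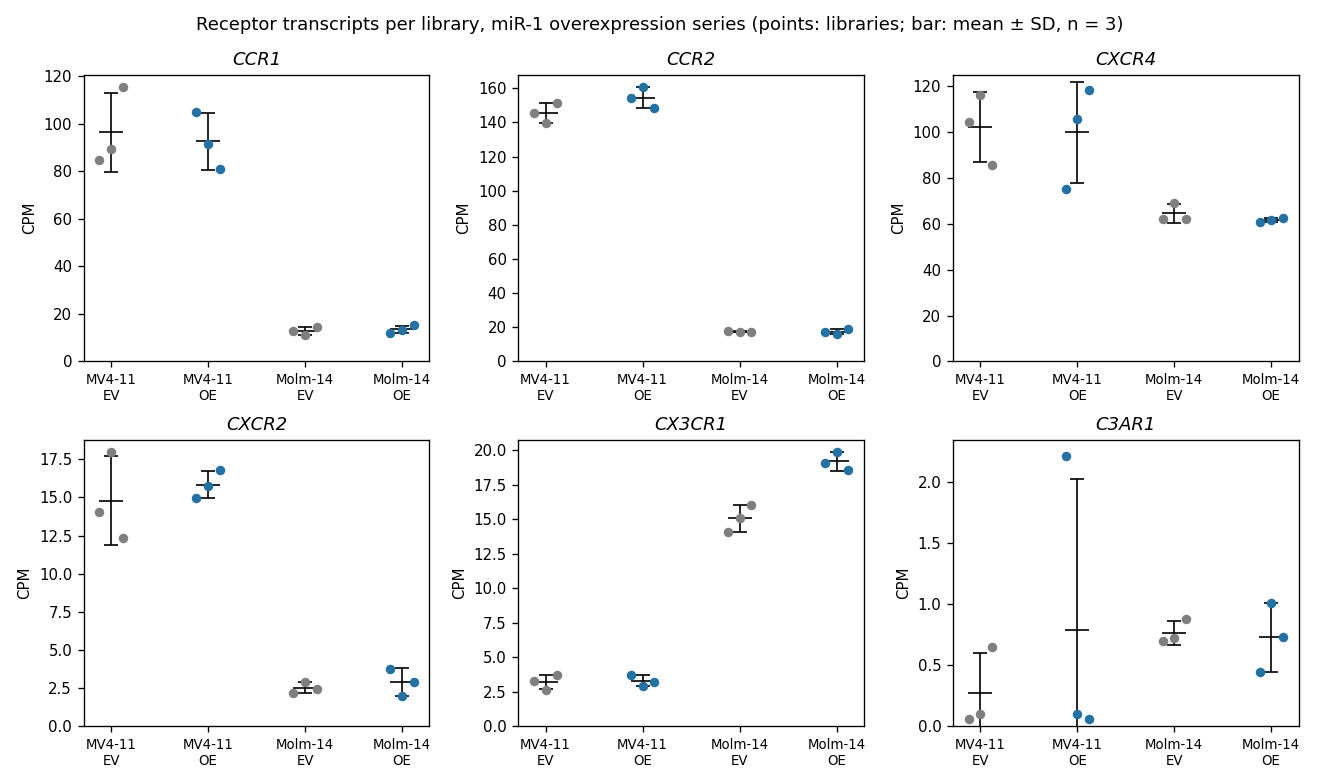
CPM of 6 receptors in the 12 libraries of the overexpression series, by cell line and vector (grey, EV; blue, OE), with points for libraries and bars for mean ± SD, n = 3. OE and EV libraries overlapped within each line for each receptor except CX3CR1 in Molm-14, where OE was at 19.2 and EV at 15.1 CPM.

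In Molm-14 OE cells, 0 of the 6 receptors passed by edgeR, 1 was under an unadjusted p of 0.05 and DESeq2 called 0, beside 0.00570% of all genes (1 of 17542). The receptor was CX3CR1, at 19.1, 19.9 and 18.6 CPM in OE and 14.1, 15.1 and 16 in EV libraries, which did not overlap (log2 fold change 0.35 ± 0.12, FDR 1). In a fit of these 6 libraries alone its FDR was 0.0362. CCR1 was at 12.1, 13 and 15.2 CPM against 12.7, 11.3 and 14.6 (log2 fold change 0.05 ± 0.17), and CCR2 at 17.1, 15.9 and 19.1 against 17.6, 17.2 and 17 (log2 fold change 0.01 ± 0.07). The effect of OE did not differ between MV4-11 and Molm-14 past the FDR for any of the 6 receptors (0 by DESeq2 and 0 under an unadjusted p of 0.05), beside 0.0456% of all genes.

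Ligands of CCR1 and CCR2 were mostly low in these lines. In Molm-14 of the knockout series, the CCR1 ligand CCL5 was at 28.6 ± 0.55 CPM in KO and 27.8 ± 1.95 in EV libraries, and CCL23 at 1.13 ± 0.31 and 1.05 ± 0.28. CCL2, the main CCR2 ligand, had at most 2 counts in any Molm-14 library of that series. It was at 6.15 ± 1.14 CPM in MV4-11 KO and 6.4 ± 0.93 in MV4-11 EV. CCL7, CCL8, CCL14 and CCL15 had 0 counts in the 18 libraries. Of the 26 ligands listed, 9 were tested in the knockout series, and C5, the precursor of C5a, was the 1 past the FDR in MV4-11 KO, beside 5.41% of all genes (log2 fold change 0.44 ± 0.10, FDR 0.0117). None of the 9 passed in THP-1 KO.

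In the other genes of the pathway, calls after MPC1 deletion in MV4-11 cells are set beside the 5.41% of all genes called there. Of 12 other chemokine receptors 3 were tested and 0 passed in MV4-11 or THP-1 KO cells by edgeR. The median over these 3 on the log2 scale was 0.53 in MV4-11 KO and 0.04 in THP-1 KO, beside 0.02 and 0.00 over all genes. Of 10 other chemoattractant receptors 6 were tested, and PTAFR, the platelet-activating factor receptor, fell in MV4-11 KO cells by 0.75 on the log2 scale (FDR 0.0181). Of 18 G protein and effector genes, all tested, GNAI1, an inhibitory G protein subunit, rose in MV4-11 KO from 2.31 to 4.74 CPM (log2 fold change 0.99 ± 0.29, FDR 0.044). Of 13 desensitisation genes, all tested, RGS10, which speeds the shut-off of G proteins, rose by 0.36 (FDR 0.0319). None of these genes passed in THP-1 KO. In OE cells, 0 of the 4 other chemokine receptors, 6 other chemoattractant receptors, 10 ligands, 18 effector genes and 13 desensitisation genes tested passed in either line by edgeR.

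Between the EV cells of MV4-11 and Molm-14 in the overexpression series, 64.8% of all genes were called, and calls among other genes of the pathway are given beside that share. All 4 of the other chemokine receptors tested were higher in MV4-11, CCR3 among them at 1.63 against 0.139 CPM (log2 difference 3.46 ± 0.58). Of the effector genes 13 were higher and 3 lower in MV4-11, with PIK3R5, a regulatory subunit of the PI3K that G proteins activate, at 100 against 12.8 CPM and GNA15 at 104 against 253. Of the desensitisation genes 5 were higher and 6 lower, with ARRB1, a beta-arrestin, at 223 against 124 CPM. Of the 10 ligands tested, 5 were called: CCL23, CXCL8 and C5 were higher, and CXCL2 and ANXA1 lower. Of the myeloid markers 4 were higher and 7 lower.

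The genes most like CCR1 and CCR2 were named from 11745 protein-coding genes tested in both series, by Pearson's r of log2 CPM over the 18 libraries of the knockout series. The libraries share lines, depth and the comparison that chose the members, so the values are a description. For CCR1 they were ALOX5AP (r = 0.96), AGK (0.94), CXCL8 (0.94), IRF8 (0.94) and TMSB4X (0.93). Over the 12 libraries of the overexpression series the same genes had r of 0.85, -0.81, 0.95, 0.66 and 0.98, so AGK turned. For CCR2 they were ZNF302 (0.99), LMO2 (0.98), SVIP (0.98), ARHGEF10L (0.98) and GNPDA1 (0.98), with r from 0.99 to 1.00 in the overexpression series. With the mean of each line subtracted, CCR1 and CCR2 had r = 0.95 over the knockout libraries and 0.39 over the overexpression libraries, and IRF8, a transcription factor of monocytes and dendritic cells, had the highest r with each (0.97 and 0.99 in the knockout series).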

How the data were processed

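RNA of acute myeloid leukemia (AML) cell lines was sequenced in 30 libraries, in 2 tables of 12 and 18 libraries. The deposited counts were whole-number reads per Ensembl gene. The labels name a stranded total RNA kit with depletion of ribosomal RNA. The authors removed optical duplicates, trimmed reads (cutadapt 1.16, per the submitters' processing notes), aligned them to GRCh38 with STAR 2.7.6a in two-pass mode and counted them with featureCounts 1.6.3. Whether counting used the strand is not stated. The tables list 60675 and 58051 genes, and the annotation release behind the smaller one is not given in the sources used here, so no test was made between them. The notes also name DESeq2 1.30.1.

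The 9 members and all gene lists were chosen with earlier results of these data known. Symbols and exon lengths came from GENCODE release 44. Libraries were grouped by the labels. Counts were tested with edgeR 4.0.16 in R 4.3.3 (filterByExpr, TMM scaling, robust quasi-likelihood fit, a mean per group, all libraries of a table in 1 model). Benjamini-Hochberg adjustment ran over every gene tested, and a false discovery rate (FDR) under 5% was a call. SE is the absolute log2 fold change divided by the square root of F. CPM are counts per 1000000 counts of the TMM-scaled library. No test was made for Molm-14 KO against EV, since the members were chosen on it. Every member is named. In the tested comparisons, other list genes are named where they passed the FDR, as examples of at most 6 per list and comparison by size. Ligands of CCR1 and CCR2 and cell type markers are also named for their levels. Alternatives were DESeq2 size factors, DESeq2 1.42.0, other filters, each library left out, a replicate block and a fit of the compared groups alone. The scripts were tested on simulated counts.

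Totals ran from 15543301 to 20939985 counts per library in the overexpression table and from 5339360 to 9106478 in the knockout table. A count of 0 allows up to 3 counts, which is 0.143 to 0.193 and 0.329 to 0.562 CPM of the unscaled totals. Floors cover counting error only. Same-numbered KO and EV libraries of THP-1 deviated together from their group means (r = 0.37, 0.25 and 0.58 over 9824 genes), so these numbers were taken as pairs. The highest r with another number was 0.36, 0.08 and -0.35, so replicate 1 was matched about as well by another number. The pairs were read from these same data. The numbers of the other lines did not pair libraries. Where nothing says that replicates were separate cultures, p-values measure only the spread between these libraries, which may be technical.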

Additional observations from a re-analysis of the deposited data

Results flagged for a closer look

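The response of CCR1 to MPC1 deletion was marked because the difference between MV4-11 and THP-1 passed a test of the difference itself. The log2 fold change was 0.53 ± 0.09 in MV4-11 and -0.06 ± 0.09 in THP-1 (SE, n = 3 libraries per group), and their difference was 0.59 (edgeR, FDR 0.0438). Of 12 fits that each left out 1 library, 3 kept the call, with FDR values of 0.0241 to 0.214, and with at least 1 CPM in 3 libraries the FDR was 0.0546. In MV4-11 all 3 KO libraries were above all 3 EV libraries. In THP-1 the libraries overlapped.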

How the results depend on the processing

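The rise of CCR1 in MV4-11 KO cells passed the FDR in all 13 fits, with log2 fold changes of 0.46 to 0.58. The number of receptors called in that comparison was 1, and became 2 with no filter beyond 1 count, where CCR2 passed. Leaving out 1 library gave 1 to 2. The difference of KO effects between MV4-11 and THP-1 held 1 call, 0 with at least 1 CPM in 3 libraries, and 0 to 1 when a library was left out. In Molm-14 OE cells, 1 receptor (CX3CR1) passed in a fit of the 2 compared groups alone, against 0. Of the 5 genes most like CCR1, 0 were found again with Spearman's rho and 1 with line means subtracted, and for CCR2 0 and 0. Same-numbered libraries of MV4-11 and Molm-14 were not taken as pairs. In MV4-11 of the overexpression series, OE replicates 1 and 3 deviated together with an EV library of another number (highest r 0.70 and 0.64). The fits did not model such shared deviations across numbers. With the replicate block, 3 receptors passed in MV4-11 KO (CCR1, CCR2 and CXCR4), and the correlation of same-numbered libraries there was 0.01, -0.51 and 0.19. THP-1 numbers were taken as pairs, and the block changed no receptor call there. The block also changed no receptor call in the other comparisons. Other alternatives were run as planned. Precision is limited for C3AR1, CCR7, FPR1 and C5AR1, whose counts are near the floor.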

Other observations

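The ratio of CCR2 to CCR1 counts within a library is given side by side for the 2 series, whose EV vectors differ. In MV4-11 EV it was 6.71 ± 0.42 in the knockout series and 1.53 ± 0.21 in the overexpression series (SD, n = 3 each), and in Molm-14 EV 2.65 ± 0.23 and 1.36 ± 0.18. The tables list different numbers of genes, the annotation release behind the knockout table is not given in the sources used here, and the difference was not tested. In the knockout series, the ratio was 5.64 ± 0.27 in MV4-11 KO, 7.22 ± 0.30 in THP-1 KO and 6.4 ± 0.64 in THP-1 EV.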
